A study of Mus musculus with 20 samples.

Results

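The 10 genes described here are Lrp2, Cubn, Amn, Dab2, Clcn5, Lrpap1, Aqp1, Miox, Slc5a12 and Slc13a3, which serve receptor-mediated endocytosis and the luminal face of the kidney proximal tubule. They were picked by symbol from the 54532 genes of the count table, and no threshold on a measured value was applied. All 10 passed the filter for low counts and were tested. Their levels were compared between 10 tumors and 10 normal kidneys of mice by bulk RNA sequencing. The mice were LSL-Cas9/+; Pax8 Cre/+ animals on a C57BL/6J background, in which Cre removes a stop cassette so that Pax8-expressing cells, among them kidney tubule cells, make Cas9 and GFP. Tumors arose after an adeno-associated virus (AAV) carrying sgRNAs for Vhl, Pbrm1, Keap1 and Tsc1, but no Cre, had been injected into the kidney. The tumors and the normal kidneys came from 1 cohort of 10 mice, so both groups carried the Cas9 and Cre alleles. The paper's methods name mice of both sexes. Xist exceeded Y-linked genes in the tumor and the kidney of 5 of the 10 sample numbers, and sex was not a covariate. Mice were killed at humane end points, and the age at collection is not given in the sources used here. A bulk tumor holds tumor cells together with stromal and immune cells, and a bulk kidney holds every nephron segment.

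The proximal tubule takes back almost all protein that passes the glomerular filter. Megalin, encoded by Lrp2, and cubilin, encoded by Cubn, bind albumin, hormones, vitamin carriers and other filtered proteins at the base of the brush border. Cubilin has no membrane span and reaches the surface only with amnionless, the product of Amn. Both receptors are taken up in clathrin-coated pits with adaptors such as Dab2, and the endosomes that receive them are acidified with the help of the chloride and proton exchanger Clcn5. Lrpap1, the receptor-associated protein, escorts megalin through the endoplasmic reticulum. Aqp1 is the water channel of the proximal tubule and of the thin descending limb of Henle, Miox opens the ring of myo-inositol in the tubule cell, and Slc5a12 and Slc13a3 bring monocarboxylates such as lactate and dicarboxylates such as succinate into it.

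Total counts ranged from 14737516 to 26679704 in normal kidneys and from 18447394 to 24902973 in tumors, and the lowest count of any of the 10 genes in any library was 250, so counting error was small beside the spread between libraries. Levels are given in CPM, the counts scaled to a common library size by the TMM factors of edgeR. Of the targeted genes, Vhl was lower in tumors by edgeR's quasi-likelihood test (log2 fold change -0.49, SE 0.118, adjusted p = 0.00179), as was Tsc1 (-0.61, SE 0.181, adjusted p = 0.00871), Pbrm1 did not pass the test (-0.28, SE 0.188, adjusted p = 0.230) and Keap1 was higher (0.83, SE 0.0887, adjusted p = 1.3e-07). Cas9 cuts can leave the mRNA in place, so these levels do not check editing. Markers of other nephron segments were nearly gone from the tumors: the summed level of 4 loop of Henle genes lay between 0.0431 and 5.89 CPM in tumors, against 3625 to 8979 CPM in normal kidneys. The summed level of 9 distal tubule and collecting duct genes lay between 1.29 and 12.6 CPM in tumors, against 562 to 2841 CPM in normal kidneys. In bulk tissue a smaller share of cells of a type and less RNA of a gene per cell cannot be told apart, in either direction.

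Several libraries stood apart. Normal kidneys 5, 7 and 8 had 1765 to 3302 CPM of Lcn2, a secreted protein of injured tubules, against 9.77 to 232 CPM in the other 7 normal kidneys, and 128 to 1347 CPM of the tubule injury marker Havcr1 against 3.18 to 35.7 CPM. Normal kidney 9 had few reads on long genes. Its genes of at least 10000 bases had a median deviation from the normal kidneys' median that was lower than that of its genes under 2000 bases, a difference of -2.19 in log2 CPM, whereas this difference was between -0.09 and 0.18 in the other 19 libraries. Tumor 7 had the lowest summed level of proximal tubule transporters among the tumors (2427 CPM, against 4846 to 11909 CPM in the other 9) and the highest summed level of 6 fibroblast genes (7905 CPM, against 128 to 587 CPM). Settings without these libraries are given beside the results they change, and those without normal kidneys 5, 7 and 8 were added after the data were seen.

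**Figure D1:**
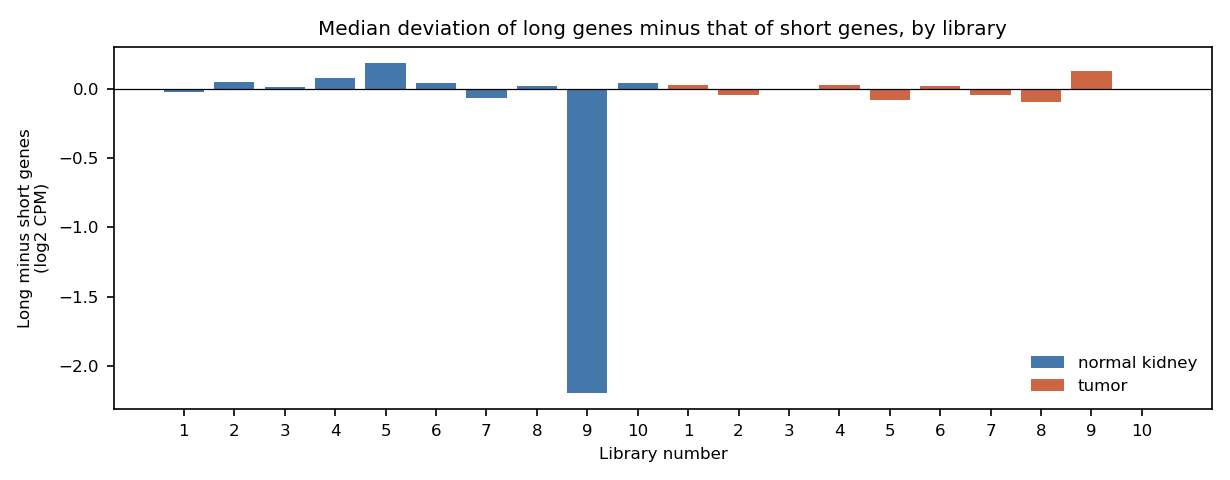
Bars show, for each library by number, the median deviation in log2 CPM of genes of at least 10000 bases from their group's median minus that of genes under 2000 bases. Normal kidney 9 stands at -2.19, while the other 19 libraries lie between -0.09 and 0.18.

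The genes are spread over 6 chromosomes. In the build mm10 (GRCm38), Lrp2 (ENSMUSG00000027070) lies on the minus strand at chr2:69424340-69586065, Cubn (ENSMUSG00000026726) on the minus strand at chr2:13276338-13491813, Amn (ENSMUSG00000021278) on the plus strand at chr12:111271095-111276426, Aqp1 (ENSMUSG00000004655) on the plus strand at chr6:55336432-55348555 and Miox (ENSMUSG00000022613) on the plus strand at chr15:89334398-89337015. Promoter sequences of RefSeq on GRCm38.p6, each from 250 bases before to 50 bases after a gene's start, were at hand for 9 of the 10 genes, all except Slc5a12. The promoters of the receptors Lrp2 and Cubn, of Amn, and of Aqp1 and Miox are shown, since the results turn on these 5 genes. Each is printed 5′ to 3′ on the gene's own strand, and capitals mark a match to 1 of the motifs searched.
Lrp2, chr2:69585980-69586279, minus strand: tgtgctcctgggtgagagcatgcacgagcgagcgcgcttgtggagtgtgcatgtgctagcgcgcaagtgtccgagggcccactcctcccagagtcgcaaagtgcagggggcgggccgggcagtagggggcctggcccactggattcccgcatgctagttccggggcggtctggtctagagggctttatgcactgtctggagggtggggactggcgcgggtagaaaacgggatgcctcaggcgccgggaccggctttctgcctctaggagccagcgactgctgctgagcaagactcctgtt
Cubn, chr2:13491827-13492126, minus strand: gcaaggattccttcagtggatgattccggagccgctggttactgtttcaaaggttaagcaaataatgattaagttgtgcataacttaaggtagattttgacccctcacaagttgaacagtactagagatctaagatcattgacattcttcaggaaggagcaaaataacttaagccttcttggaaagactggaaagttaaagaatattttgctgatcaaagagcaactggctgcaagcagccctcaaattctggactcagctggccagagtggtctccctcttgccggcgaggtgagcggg
Amn, chr12:111270846-111271145, plus strand: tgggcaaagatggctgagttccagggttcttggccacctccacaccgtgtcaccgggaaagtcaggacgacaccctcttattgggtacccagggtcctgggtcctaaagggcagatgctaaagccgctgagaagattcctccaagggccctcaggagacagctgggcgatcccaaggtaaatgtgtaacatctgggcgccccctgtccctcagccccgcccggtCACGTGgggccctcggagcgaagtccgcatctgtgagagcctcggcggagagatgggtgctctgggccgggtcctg
Aqp1, chr6:55336049-55336348, plus strand: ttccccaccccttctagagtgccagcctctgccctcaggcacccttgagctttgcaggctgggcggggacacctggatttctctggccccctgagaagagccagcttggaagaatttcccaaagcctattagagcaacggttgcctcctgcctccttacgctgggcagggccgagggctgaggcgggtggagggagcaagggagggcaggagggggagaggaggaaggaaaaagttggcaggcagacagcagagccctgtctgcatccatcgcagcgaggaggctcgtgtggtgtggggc
Miox, chr15:89334223-89334522, plus strand: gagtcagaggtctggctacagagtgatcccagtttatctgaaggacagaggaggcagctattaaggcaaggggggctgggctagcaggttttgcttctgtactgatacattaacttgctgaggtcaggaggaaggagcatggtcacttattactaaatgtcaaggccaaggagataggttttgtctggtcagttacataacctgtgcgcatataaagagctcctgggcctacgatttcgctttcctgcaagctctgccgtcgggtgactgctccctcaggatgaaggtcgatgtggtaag

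The 11 promoters of the 9 genes, with 2 each for Dab2 and Clcn5, were searched on both strands for CAAAGTCCA, a core of HNF4 sites, for ACGTG, the core of the hypoxia response element, and for the E-box CACGTG, which contains ACGTG on both strands. The Amn promoter held an E-box at base -26 from the start and the Slc13a3 promoter held one at base -154, against 7.15% of all 32851 promoters of this length. The hypoxia core stood in 3 of the 11 promoters, those 2 and the second Dab2 promoter, against 19.6% of all promoters. The HNF4 core, present in 0.475% of all promoters, was in 0 of the 11. The letters of the Lrp2, Cubn, Aqp1 and Miox windows matched none of these motifs.

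Most of the 10 genes did not differ between tumors and normal kidneys past the threshold, while Aqp1 and Miox were far lower in tumors. By the quasi-likelihood test of edgeR, with Benjamini-Hochberg adjusted p over all 15354 genes tested, 2 of the 10 genes were lower in tumors, Aqp1 and Miox, 1 was higher, Amn, and 7 did not pass the test. Among all genes, 3661 were lower (23.8%) and 3631 were higher (23.6%). The median log2 fold change of the 10 genes was -0.25, beside -0.02 over all genes tested. Lrp2 was called higher as well with a block on the sample number, which gave 2 lower and 2 higher of the 10 genes. With library totals or upper quartile factors in place of TMM factors, the median over all genes moved to -0.14, and 61.5% or 60.8% of all calls were then lower, against 50.2%.

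**Figure D2:**
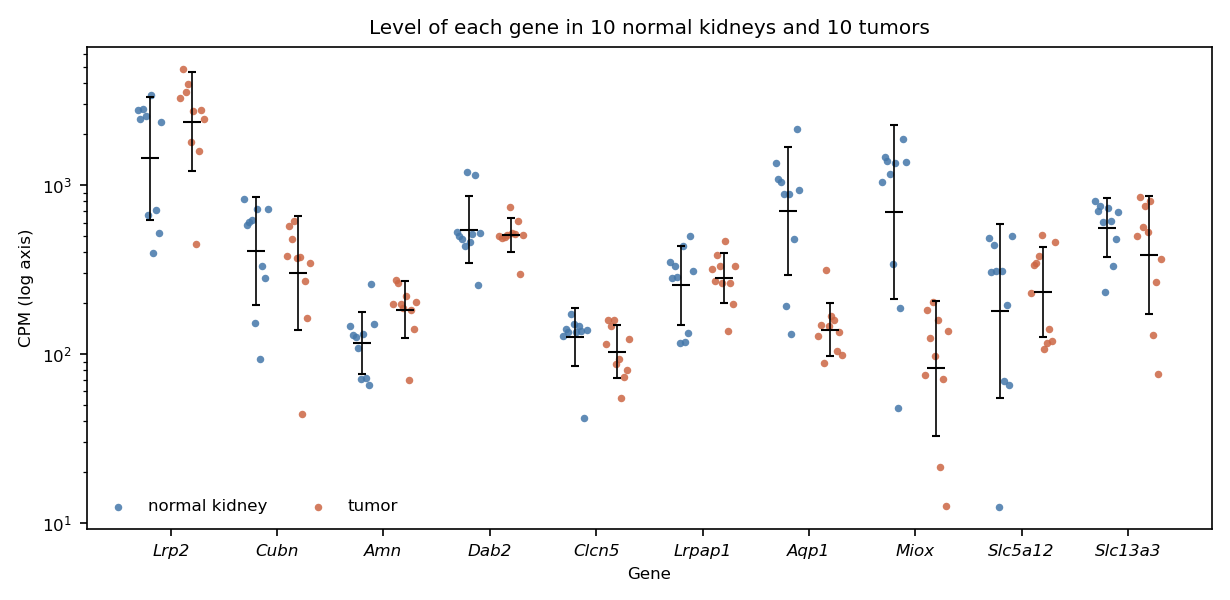
Points show the level in CPM, on a log axis, of each of the 10 genes in each of 10 normal kidneys and 10 tumors, and bars show the mean ± SD of log2 CPM. Aqp1 lies between 87.9 and 313 CPM in tumors, against 131 to 2137 CPM in normal kidneys, whereas Lrp2 lies between 450 and 4871 CPM in tumors, against 394 to 3437 CPM in normal kidneys.

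Lrp2, which encodes megalin, ranged from 450 to 4871 CPM with a median of 2773 in tumors, and from 394 to 3437 CPM with a median of 2403 in normal kidneys. The groups overlapped, with 3 tumors above every normal kidney and 1 normal kidney below every tumor. The log2 fold change of 0.56 (SE 0.413) did not pass edgeR's quasi-likelihood test (adjusted p = 0.275). The normal kidneys fell into separate clusters, 6 at 2348 to 3437 CPM and 4, numbered 5, 7, 8 and 9, at 394 to 710 CPM. Kidney 9 was the library with few reads on long genes, and Lrp2, at 16701 bases, is the longest of the 10 genes. The part of gene length in the low Lrp2 of kidney 9 was not tested. The log2 fold change was 0.19 (adjusted p = 0.693) without normal kidneys 5, 7 and 8 and -0.0011 (adjusted p = 0.998) without all 4, and since these 4 are also the lowest in Lrp2, leaving them out had to lower it. Between libraries with the same number, Lrp2 was higher in the tumor in 9 of 10, and in 5 of 6 apart from numbers 5, 7, 8 and 9. With a block on the sample number Lrp2 was called higher (0.70, adjusted p = 0.0323), but the labels do not say that a number marks a mouse. All 10 numbers matched on sex-linked genes between tumor and kidney, so the unpaired result does not settle whether Lrp2 differed. Tumor 7, at 450 CPM, was apart from the other tumors, of which the lowest was tumor 8 at 1581 CPM.

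Cubn ranged from 43.8 to 617 CPM with a median of 374 in tumors, and from 93.9 to 829 CPM with a median of 591 in normal kidneys. Of the tumors 9 lay inside the range of normal kidneys, 1 lay below it, and 4 normal kidneys lay above every tumor. Between libraries with the same number, Cubn was higher in the tumor in 1 of 10, and in 0 of 6 apart from numbers 5, 7, 8 and 9. For Cubn a log2 fold change of -0.44 (SE 0.392) did not pass edgeR's quasi-likelihood test (adjusted p = 0.369). It was -0.92 (adjusted p = 0.0342) without normal kidneys 5, 7, 8 and 9, and -0.62 (adjusted p = 0.0145) with limma-voom and quality weights, and Cubn was called lower in these settings.

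The receptors did not keep their proportion. Within a library, the log2 ratio of Cubn to Lrp2 averaged -2.98 ± 0.496 in tumors against -1.82 ± 0.475 in normal kidneys (SD, n = 10 each). It ranged from -4.10 to -2.29 in tumors and from -2.25 to -0.89 in normal kidneys, so that every tumor lay below every normal kidney. The difference of -1.15 passed a two-sided permutation test (p = 2e-05, the smallest that 100000 resamples can give, adjusted p = 1e-04 over 10 ratios). A ratio within a library does not depend on the scaling of that library. Both transcripts are long, 16701 bases for Lrp2 and 14935 bases for Cubn, and the difference was -1.01 without normal kidney 9 and tumor 7 and -1.13 without normal kidneys 5, 7 and 8 (permutation tests, adjusted p = 0.000137 and 0.000514).

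Amn, the partner that carries cubilin to the membrane, was the gene of the endocytic set that was higher in tumors. It ranged from 70.3 to 275 CPM with a median of 197 in tumors, and from 65.6 to 259 CPM with a median of 128 in normal kidneys. Of the tumors 8 lay inside the range of normal kidneys and 2 above it. The log2 fold change was 0.62 (SE 0.241, adjusted p = 0.0390 by edgeR's quasi-likelihood test), close to the threshold. Leaving out any single library of normal kidneys 2 to 8 or of tumors 1 to 6 and 10, 14 libraries in all, ended the call, with adjusted p between 0.0502 and 0.0710. Without normal kidneys 5, 7 and 8 the log2 fold change was 0.37 (adjusted p = 0.173), while without normal kidney 9 it was 0.79 (adjusted p = 0.00412) and without tumor 7 it was 0.71 (adjusted p = 0.00801). Normal kidney 9 held the highest level of this short gene (1843 bases) among the normal kidneys, 259 CPM against 65.6 to 151 CPM in the other 9.

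Set against its partner, Amn was higher in tumors. The log2 ratio of Amn to Cubn averaged -0.71 ± 0.612 in tumors against -1.81 ± 0.917 in normal kidneys (SD, n = 10 each), and ranged from -1.65 to 0.68 and from -2.50 to -0.12. The difference of 1.09 passed the permutation test (p = 0.00734, adjusted p = 0.0147), and was 1.13 without normal kidney 9 and tumor 7 and 1.32 without normal kidneys 5, 7 and 8. The ratio of Amn to Lrp2 differed by -0.06 between the groups (permutation test, adjusted p = 0.890).

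Dab2, the adaptor that links the receptors to clathrin, varied least among the 10 genes in tumors. It ranged from 298 to 745 CPM with a median of 509 in tumors, and from 257 to 1191 CPM with a median of 505 in normal kidneys. All 10 tumors lay inside this range of normal kidneys, but its low end was normal kidney 9. Tumor 9, at 298 CPM, lay below every other normal kidney, of which the lowest was at 434 CPM. In log2 CPM the SD of Dab2 was 0.330 in tumors, the lowest of the 10 genes there. Its log2 fold change was -0.21 (SE 0.230, adjusted p = 0.464 by edgeR's quasi-likelihood test), and 0.20 (adjusted p = 0.313) without normal kidneys 5, 7 and 8. Normal kidneys 5 and 8 held 1191 and 1146 CPM, above every tumor, in the same libraries in which Lrp2 was at 667 and 710 CPM.

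Lrpap1, the chaperone of megalin, ranged from 137 to 466 CPM with a median of 294 in tumors, and from 116 to 503 CPM with a median of 296 in normal kidneys. All 10 tumors lay inside the range of normal kidneys, but its top was normal kidney 9, the library with few reads on long genes. Tumor 6, at 466 CPM, lay above every other normal kidney, of which the highest was at 433 CPM. A log2 fold change of 0.05 (SE 0.264, adjusted p = 0.893 by edgeR's quasi-likelihood test) has no stable sign, and lay between -0.27 and 0.29 over the alternatives other than leaving out single libraries.

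Clcn5, the exchanger of early endosomes, ranged from 55.2 to 160 CPM with a median of 104 in tumors, and from 42.0 to 172 CPM with a median of 137 in normal kidneys. Clcn5 had a log2 fold change of -0.28 (SE 0.214, adjusted p = 0.288 by edgeR's quasi-likelihood test). The lowest value of all belonged to normal kidney 9, at 42.0 CPM on a gene of 11452 bases, and the other 9 normal kidneys lay between 128 and 172 CPM. Without that library the log2 fold change was -0.40 (adjusted p = 0.0481), past the threshold.

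Aqp1, the water channel, was lower in tumors. It ranged from 87.9 to 313 CPM with a median of 141 in tumors, and from 131 to 2137 CPM with a median of 909 in normal kidneys. Of the normal kidneys 8 lay above every tumor, and 4 tumors lay below every normal kidney. Aqp1 had a log2 fold change of -2.62 (SE 0.388, adjusted p = 1.1e-05 by edgeR's quasi-likelihood test), a level 6.14-fold lower. The normal kidneys that reached down to the tumors were kidneys 5 and 7, at 193 and 131 CPM. Over leaving out each library in turn the log2 fold change lay between -2.80 and -2.39, and over the other alternatives between -2.99 and -2.22, past the threshold in all of them. Aqp1 is also made by the thin descending limb and by blood vessels. The 4 loop of Henle genes summed above, Umod, Slc12a1, Cldn16 and Kcnj1, do not mark the thin descending limb. The part of that limb and of vessels in the fall of Aqp1 was not tested.

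Miox, the oxygenase that begins the breakdown of myo-inositol, was lower by still more. It ranged from 12.6 to 204 CPM with a median of 110 in tumors, and from 47.6 to 1863 CPM with a median of 1253 in normal kidneys. Of the normal kidneys 8 lay above every tumor and 2 tumors, numbers 7 and 9, lay below every normal kidney. Miox had a log2 fold change of -3.24 (SE 0.562, adjusted p = 6.9e-05 by edgeR's quasi-likelihood test), a level 9.42-fold lower. It lay between -3.38 and -3.11 over leaving out each library in turn and between -3.67 and -2.66 over the other alternatives, past the threshold in all of them.

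The carriers Slc5a12 and Slc13a3 varied widely in both groups and did not pass the test. Slc5a12, a sodium-coupled carrier of lactate, ranged from 107 to 505 CPM with a median of 284 in tumors, and from 12.4 to 501 CPM with a median of 309 in normal kidneys. The lowest normal kidneys were numbers 5, 9 and 7, at 12.4, 65.1 and 69.3 CPM, below every tumor. Its log2 fold change was 0.02 (SE 0.476, adjusted p = 0.973 by edgeR's quasi-likelihood test), and was below 0 under 10 of the 17 alternatives other than leaving out single libraries. Slc13a3, the sodium-coupled dicarboxylate carrier, ranged from 76.5 to 851 CPM with a median of 515 in tumors, and from 234 to 809 CPM with a median of 656 in normal kidneys. Tumors 9 and 7, at 76.5 and 129 CPM, lay below every normal kidney. Its log2 fold change was -0.30 (SE 0.344, adjusted p = 0.498 by edgeR's quasi-likelihood test).

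Per kb of gene length the order of the 10 genes differed between the groups. In normal kidneys Miox led with 618 ± 371 CPM per kb (SD, n = 10), followed by Aqp1 with 347 ± 222 CPM per kb, Slc13a3 with 114 ± 36.5 CPM per kb and Lrp2 with 112 ± 69.2 CPM per kb. Normal kidney 9, with few reads on long genes, is part of these means. It held the highest Miox and Aqp1 of the normal kidneys, 1128.5 and 813.4 CPM per kb, beside 31.1 CPM per kb of Lrp2. The order without that library was not tested. In tumors Lrp2 led with 165 ± 76.3 CPM per kb, followed by Amn with 105 ± 31.5 CPM per kb and Slc13a3 with 92.8 ± 52.3 CPM per kb, whereas Miox with 65.6 ± 39.2 CPM per kb and Aqp1 with 56.5 ± 24.2 CPM per kb came in places 7 and 8. In both groups Cubn and Clcn5 were last, with 24.3 ± 11.7 and 9.52 ± 3.25 CPM per kb in tumors and 33.0 ± 17.2 and 11.6 ± 2.97 CPM per kb in normal kidneys. Neighbours in these orders mostly lay within each other's SD, such as the 5 genes Lrpap1, Dab2, Slc5a12, Miox and Aqp1 in tumors, with means between 56.5 and 72.0 CPM per kb.

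Ratios to Lrp2 asked whether the genes moved by unequal amounts. Of 9 ratios, 5 were lower in tumors by permutation tests with adjustment over 10 ratios: those of Cubn (given above), Clcn5, Aqp1, Miox and Slc13a3. The log2 ratio of Aqp1 to Lrp2 differed by -3.05 (adjusted p = 0.000333) and that of Miox to Lrp2 by -3.79 (adjusted p = 1e-04). The Miox ratio ranged from -7.78 to -4.11 in tumors and from -3.05 to 1.84 in normal kidneys. Normal kidney 9, with few reads on long genes, held the highest value of both ratios, 1.84 for Miox and 2.04 for Aqp1. The other normal kidneys reached -0.75 for Miox and -0.56 for Aqp1. The log2 ratio of Slc13a3 to Lrp2 differed by -1.25 (adjusted p = 0.00355), although neither gene passed the test alone. The ratio of Clcn5 to Lrp2 differed by -1.01 (adjusted p = 0.0349), but by -0.35 (adjusted p = 0.319) without normal kidneys 5, 7 and 8. The ratios of Amn, Dab2, Lrpap1 and Slc5a12 to Lrp2 did not pass the permutation test, with differences of -0.06, -0.82, -0.57 and -0.34. All 10 ratios share libraries, and 9 share Lrp2, so they are not independent of each other.

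**Figure D3:**
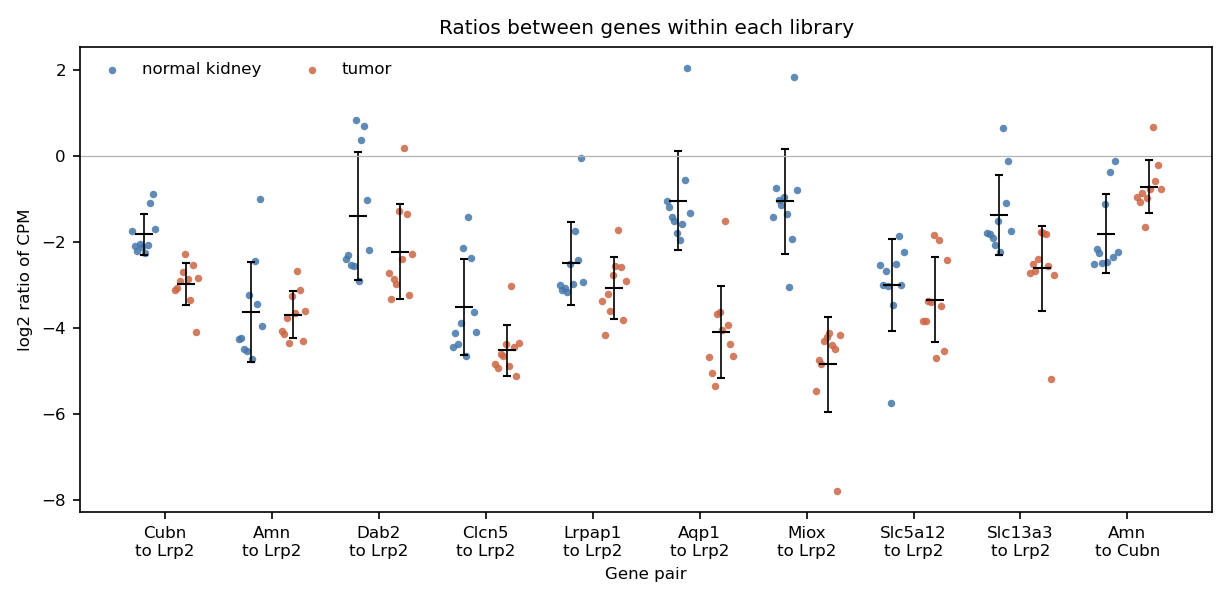
Points show log2 ratios of CPM between pairs of the genes within each of 10 normal kidneys and 10 tumors, with mean ± SD. The Cubn to Lrp2 ratio lies between -4.10 and -2.29 in tumors, against -2.25 to -0.89 in normal kidneys, and the Miox to Lrp2 ratio also separates the groups.

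The 3 normal kidneys with high Lcn2, numbers 5, 7 and 8, were low in most of these genes. In these kidneys, compared with the 6 others apart from kidney 9, Lrp2 was at 394 to 710 CPM against 2348 to 3437 CPM, Lrpap1 at 116 to 133 CPM against 281 to 433 CPM, Amn at 65.6 to 72.0 CPM against 109 to 151 CPM, and Miox at 47.6 to 343 CPM against 1047 to 1459 CPM. Clcn5 was at 136 to 151 CPM in these kidneys and at 128 to 172 CPM in the 6 others, and Dab2 was at 511 to 1191 CPM against 434 to 526 CPM. Slc34a1, the sodium-phosphate carrier that defines the proximal tubule, was at 140 to 633 CPM against 2227 to 3582 CPM. The labels call these kidneys normal, and what set them apart was not tested. These kidneys were picked out by their Lcn2, which was not 1 of the 10 genes, and the differences are given as a description with no test.

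**Figure D4:**
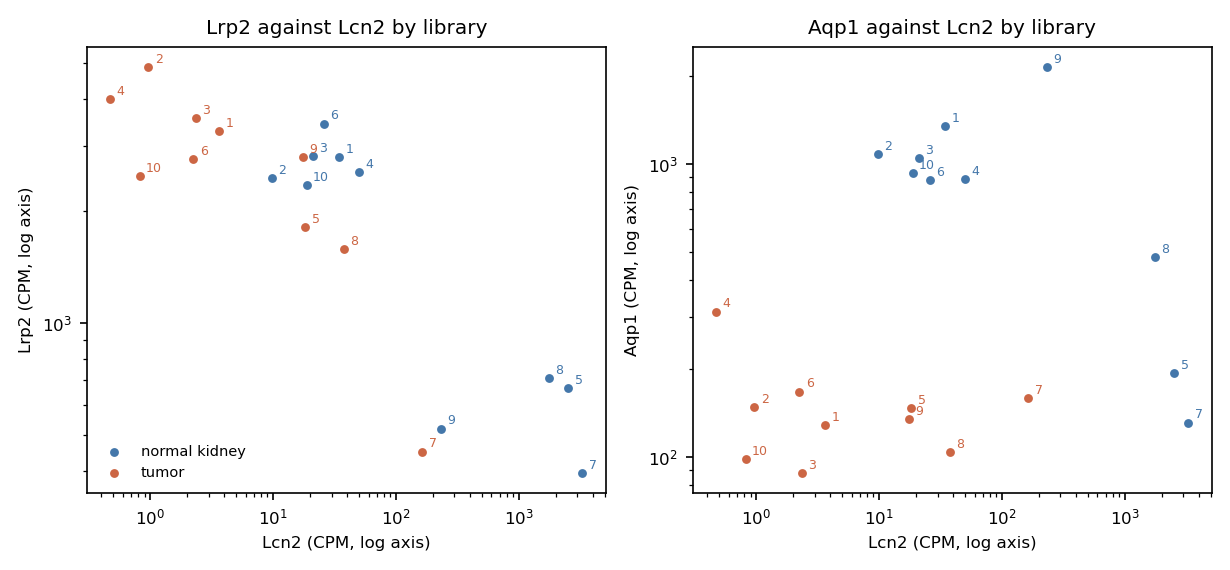
Points show Lrp2 (left) and Aqp1 (right) against Lcn2, all in CPM on log axes, for 10 normal kidneys and 10 tumors, each marked with its number. Normal kidneys 5, 7 and 8 lie at 1765 to 3302 CPM of Lcn2 with 394 to 710 CPM of Lrp2. The tumors lie at 0.474 to 165 CPM of Lcn2, below those kidneys, with 87.9 to 313 CPM of Aqp1, a range that also holds normal kidneys 5 and 7.

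Within the tumors Lrp2 varied together with Cubn, Amn and Clcn5, but only the relation with Clcn5 stayed strong without tumors 2 and 7. Over the 10 tumors, log2 CPM of Lrp2 correlated with that of Cubn (Pearson's r = 0.897, permutation p = 0.00550, adjusted p = 0.0401 over 18 relations). Spearman's rho for Cubn was 0.855 (permutation p = 0.00286, adjusted p = 0.0257). With Amn r was 0.886 (permutation p = 0.00668, adjusted p = 0.0401). The rho for Amn, 0.697, did not pass after adjustment (permutation p = 0.0304, adjusted p = 0.137). Without the libraries farthest from the median of Lrp2, tumors 2 and 7, r was 0.469 for Cubn and 0.323 for Amn, so both relations rested on those tumors. The relation with Clcn5 did not: r was 0.868 (permutation p = 0.000190, adjusted p = 0.00342), rho was 0.879 (permutation p = 0.00169, adjusted p = 0.0257), and r was 0.806 without those tumors. For the other 6 genes r lay between -0.23, for Dab2, and 0.71, for Lrpap1, with adjusted p from 0.118 to 0.871 by permutation tests. Dab2 had a rho of -0.733 (permutation p = 0.0203, adjusted p = 0.122). As the normal kidneys fell into clusters, no r over all 10 is given. Within the 6 kidneys of the upper cluster, 0 of 9 relations passed, with 1 at an unadjusted p under 0.05, that of Lrp2 with Lrpap1 (r = 0.923, exact permutation p = 0.0153, adjusted p = 0.0688).

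The 5 genes whose log2 CPM followed that of Lrp2 most closely over the 10 tumors, of 13769 genes with at least 1 CPM on average in tumors, were Vps18 (r = 0.987), Dcaf1 (r = 0.986), Ctdspl (r = 0.986), Abcc4 (r = 0.985) and Slc25a32 (r = 0.983). Vps18 is a subunit of the complexes that tether endosomes to lysosomes, and it was higher in tumors (log2 fold change 1.52, SE 0.133, adjusted p = 7.1e-09 by edgeR's quasi-likelihood test). Abcc4, an organic anion exporter of the brush border, was also higher (1.08, SE 0.242, adjusted p = 0.000963). Among the 10 genes Cubn came in place 377, Amn in place 485 and Clcn5 in place 672 of this ranking, and Dab2 in place 8813. These are descriptions over 10 libraries, in which tumor 7 weighs heavily.

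Other genes of the endocytic route were more often higher than lower in tumors. The counts in this list and in those below stand beside 23.6% higher and 23.8% lower over all genes. Of 32 genes of the endocytic machinery, which hold clathrin, its AP2 adaptor, Rab proteins and sorting factors, 14 were higher, 4 were lower and 14 did not pass edgeR's quasi-likelihood test, with a median log2 fold change of 0.19 beside -0.02 over all genes. The largest changes were in Ctns, the cystine exporter of lysosomes (0.84, adjusted p = 0.000350), Rab11a, the GTPase of recycling endosomes (0.74, adjusted p = 2.5e-05), Pacsin2, a membrane-bending protein (-0.65, adjusted p = 6.3e-05), and Rab38 (-3.93, adjusted p = 5.7e-06), a GTPase of lysosome-related organelles. Rab38 was scarce in both groups, at 0.324 CPM on average in tumors against 5.14 CPM in normal kidneys. Upper quartile factors lowered the median of this list to 0.073 and library totals to 0.046. The count of higher genes lay between 10 and 17 over all alternatives.

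The megalin relatives of the LDL receptor family moved in both directions. Of 9 tested genes 4 were higher and 3 lower by the same test, beside 23.6% higher and 23.8% lower over all genes, with a median of 0.76. That median was 0.34 without tumor 7, 0.23 without normal kidney 9 and tumor 7, and 0.30 with DESeq2. Vldlr, the VLDL receptor (1.54, adjusted p = 2.1e-06), and Lrp8, a receptor of reelin (1.52, adjusted p = 0.0285), were higher, while Lrp6, a coreceptor of Wnt (-1.02, adjusted p = 3.6e-06), and the sorting receptor Sorl1 (-1.29, adjusted p = 0.000160) were lower. Of the relatives of Clcn5 and their subunit, 4 of 5 were higher (median 0.45), led by Ostm1 (1.67, adjusted p = 3e-10) and Clcn7 (1.28, adjusted p = 9.5e-08), which form the chloride and proton exchanger of lysosomes, while 2 were called higher with upper quartile factors or library totals. Among 10 genes for the carriers and handling of vitamins that megalin and cubilin take up, 2 were higher and 4 lower (median -0.03, between -0.18 and 0.04 over all alternatives). Abcd4, a lysosomal protein of vitamin B12 transport (2.72, adjusted p = 3.6e-09), and Gc, the plasma carrier of vitamin D (1.65, adjusted p = 4.4e-05), were higher. Cyp24a1, which breaks down vitamin D (-4.10, adjusted p = 1.7e-05), was lower, as was Rbp4 (-1.41, adjusted p = 0.0353), the plasma carrier of retinol.

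**Figure D5:**
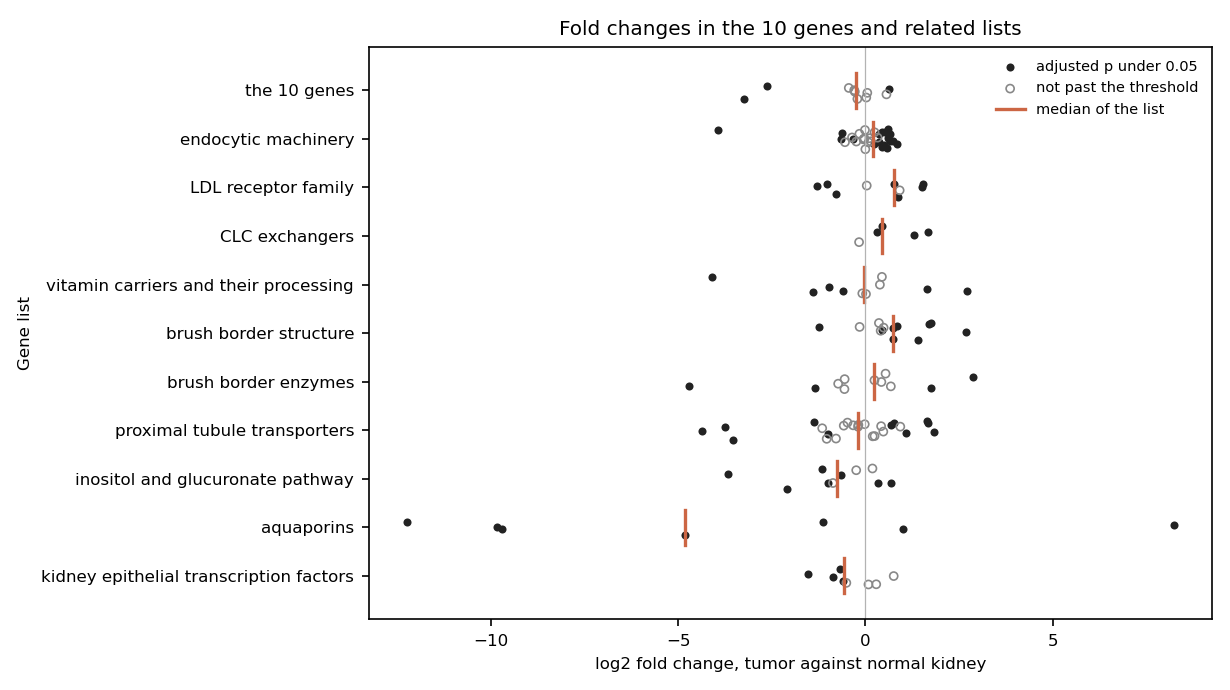
Points show log2 fold changes, tumor against normal kidney, of the 10 genes and of related lists, filled where edgeR's adjusted p is under 0.05 and open otherwise, with a line at each list's median. The brush border structure list has a median of 0.72 and the aquaporins one of -4.82.

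Structural genes of the brush border were mostly higher in tumors. Of 13 tested genes of the microvillus core, its linkers and its adhesion proteins, 8 were higher, 1 was lower and 4 did not pass edgeR's quasi-likelihood test (median 0.72). Cdhr2, a protocadherin that links the tips of microvilli (2.69, adjusted p = 1e-08), and the actin bundler Espn (1.75, adjusted p = 9.8e-07) rose most, and the gene that fell was Slc9a3, the luminal sodium and proton exchanger (-1.25, adjusted p = 0.0235). Of 11 tested enzymes of the brush border 2 were higher and 2 lower (median 0.24), beside 23.6% higher and 23.8% lower over all genes. Anpep, aminopeptidase N (2.87, adjusted p = 9.1e-08), and Dpp4, dipeptidyl peptidase 4 (1.76, adjusted p = 4.4e-05), rose, while Mme, neprilysin (-4.72, adjusted p = 1e-09), and Treh, trehalase (-1.35, adjusted p = 0.00357), fell. The median of the enzymes had no stable sign, and was -0.27 without normal kidneys 5, 7 and 8, when 5 enzymes were lower and 2 higher. Leaving out normal kidney 7 alone gave a median of -0.20 with the same counts, and leaving out normal kidney 9 alone gave 4 higher and 2 lower enzymes.

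Proximal tubule transporters were called in both directions. Of 25 tested, 6 were higher, 5 lower and 14 did not pass the test (median -0.19), shares near those over all genes (23.6% higher and 23.8% lower). Without normal kidneys 5, 7 and 8 it was 4 higher and 10 lower (median -0.37), and without kidney 9 as well 3 higher and 10 lower (median -0.32). The glucose exit carrier Slc2a2 (1.68, adjusted p = 0.000311) and the organic anion carrier Slco1a1 (1.83, adjusted p = 0.0392, 6.27 CPM in tumors against 1.77 CPM in normal kidneys) were higher. The phosphate carrier Slc34a3 (-4.36, adjusted p = 5.6e-05), the organic anion carrier Slc22a8 (-3.74, adjusted p = 6.2e-06) and Slc5a2, the sodium-glucose cotransporter of the early proximal tubule, were lower. Slc5a2 was at 1.31 to 69.2 CPM in tumors against 50.7 to 393 CPM in normal kidneys (-3.54, SE 0.559, adjusted p = 2.3e-05). Slc34a1 had a log2 fold change of -1.15 (SE 0.535, adjusted p = 0.0813 by edgeR's quasi-likelihood test). Of 8 kidney epithelial transcription factors 4 were lower (median -0.56). Hnf4a, a main regulator of the proximal tubule, had a log2 fold change of -0.67 (SE 0.258, adjusted p = 0.0371) and was among them.

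Other genes of water and inositol transport were also called. All 7 tested aquaporins other than Aqp1 passed the test, 5 lower and 2 higher (median -4.82, between -9.22 and -3.01 over all alternatives). Aqp2, the vasopressin-regulated channel of the collecting duct, was at 315 CPM on average in normal kidneys and at 0.0578 CPM in tumors, and Aqp6 at 73.9 and 0.0783 CPM. Against this, Aqp8 rose from 1.18 CPM on average in normal kidneys to 357 CPM in tumors (log2 fold change 8.23, SE 0.736, adjusted p = 9.8e-09), and Aqp7, an aquaglyceroporin of the late proximal tubule, rose by 1.00 on the log2 scale (adjusted p = 0.000111). Of 10 genes of inositol and glucuronate handling 5 were lower and 2 higher (median -0.76), beside 23.8% lower and 23.6% higher over all genes. In this list 7 were lower and 1 higher without normal kidneys 5, 7 and 8, and 1 was higher without tumor 5 or tumor 8. Slc5a3, the sodium-coupled importer of myo-inositol (-3.67, adjusted p = 4e-10), and Slc2a13, its proton-coupled importer (-2.10, adjusted p = 0.000376), fell with Miox, while Cryl1 (0.67, adjusted p = 0.0286) and Impa1 (0.33, adjusted p = 0.0220), an enzyme that frees inositol from its phosphate, rose, although 0 genes of this list were called higher with upper quartile factors and 1 with library totals. Slc5a3 is most active in the renal medulla. The loop of Henle, distal tubule and collecting duct genes summed above were nearly gone from the tumors. The part of these segments in the fall of Slc5a3 was not tested.

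Markers of other cell types were measured in the same libraries. Of 6 tested immune genes 4 were higher, led by Cd68 (3.48, adjusted p = 8.4e-06) and Lyz2 (1.68, adjusted p = 0.00192), and their summed level ranged from 261 to 1221 CPM in tumors and from 78.2 to 297 CPM in normal kidneys. None was lower, but 1 was called lower without normal kidneys 5, 7 and 8, and without any 1 of normal kidneys 5 and 7 and tumors 1 to 8 and 10. Ptprc, a gene of leukocytes in general, did not pass edgeR's quasi-likelihood test (0.31, adjusted p = 0.407), nor did Itgam (1.49, adjusted p = 0.0747). Cd3e of T cells and Cd79a of B cells were too low to be tested. They averaged 0.106 and 0.286 CPM in tumors, against 0.472 and 1.28 CPM in normal kidneys. A rise of immune cells in general was thus not shown. Of 6 fibroblast genes 0 passed edgeR's quasi-likelihood test, with 2 at an unadjusted p under 0.05, 1 called by DESeq2 and 0 by limma-voom. This count and the direction depended on single libraries. The median was 0.93, 2 genes were called higher without normal kidney 7 (median 1.14), and 2 were called lower without tumor 7 (median -0.45) or without normal kidney 9 and tumor 7 (median -0.56). Of 6 red blood cell genes 0 passed, with 0 at an unadjusted p under 0.05 and 0 called by DESeq2 or limma-voom. Among 6 endothelial genes Cdh5 was higher and Tek lower, and 2 were called lower without normal kidney 9 or without tumor 9. Of 5 podocyte genes 4 were lower, with Nphs1 at 0.613 CPM on average in tumors against 38.5 CPM in normal kidneys. Of 12 tubule injury genes 4 were higher, among them Anxa3 (3.43, adjusted p = 9.3e-07), Cd44 (3.22, adjusted p = 4.4e-07) and Vcam1 (1.93, adjusted p = 5.5e-09), and 3 were lower, among them Clu (-3.84, adjusted p = 9e-05) and Lcn2 (-5.00, adjusted p = 0.00491). The median of these 12 genes was 0.80. Without normal kidneys 5, 7 and 8, which were picked out by Lcn2, a gene of this list, 9 were higher and 2 lower (median 2.22), and without normal kidney 7 alone 6 were higher and 3 lower (median 1.35). With limma-voom 7 were higher, and with a block on the sample number 8. Lcn2 lay between 0.474 and 165 CPM in tumors, beside 9.77 to 232 CPM in the 7 normal kidneys other than 5, 7 and 8. Havcr1 did not pass (0.76, adjusted p = 0.490), with 102 to 586 CPM in tumors against 3.18 to 1347 CPM in normal kidneys. In the 7 normal kidneys other than 5, 7 and 8 Havcr1 was at 3.18 to 35.7 CPM, below every tumor. The part of these cells in the levels of the 10 genes was not tested.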

How the data were processed

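The labels call each sample a tumor or a normal kidney, numbered 1 to 10. Tissue was frozen and pulverized, RNA was extracted with Trizol, and a sequencing company selected poly A RNA and counted reads on genes. The authors deposited raw gene counts, with mm10 named in the labels' processing notes; the aligner, the counter and whether strand was used are not given in the sources used here, so overlapping genes carry uncertain counts. The table has 0 rows without a gene and 0 unused columns.

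From the counts, edgeR 4.0.16 (R 4.3.3) computed TMM factors, kept 15354 genes (count minimum 10) and compared 10 tumors with 10 normal kidneys by the quasi-likelihood test with no covariate. Calls were made at a Benjamini-Hochberg adjusted p under 0.05. Single libraries are in CPM, or, for ratios and correlations, in log2 CPM (prior count 2). Permutation tests were two-sided with 100000 resamples in scipy 1.17.1, and exact over 6 libraries. No library appeared to be present more often than once (over 90 pairs, chi-square per degree of freedom was at least 13.98). Counting error excludes PCR copies, which no molecular identifiers marked. The labels give no batch, and p-values measure the spread between these samples.

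The alternatives were other factors, filters and tests (DESeq2 1.42.0, limma 3.58.1), a gene length correction, a block on the sample number and libraries left out. Tests were first tried on simulated data. The correlations planned over all normal kidneys were made within their upper cluster of Lrp2. The 10 genes and all lists were chosen with earlier results of these data known. Genes named from lists are the 2 lowest and 2 highest called fold changes with at least 1 CPM in a group, with Slc34a1, Slc5a2, Hnf4a, Havcr1 and Vcam1 in any case (1 more such gene is not reported here); the targeted genes were added outside this rule.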

Additional observations from a re-analysis of the deposited data

Results flagged for a closer look

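In 6 of 20 sets, each 1 gene in 1 group of 10 libraries, the highest or lowest library stood apart by Dixon's limit on log2 CPM. Chance gives about 1 in 20 where values are normally distributed. The sets share libraries and are not independent, so an excess over chance was not shown. Tumor 7 was far below the other tumors in Lrp2 (8.82), Cubn (5.46) and Amn (6.14), 3 genes of the same receptor complex, in the library with the highest summed fibroblast genes. Tumor 9 was lowest in Dab2 (8.22). Tumor 4 was highest in Aqp1 (8.29). Normal kidney 9 was lowest in Clcn5 (5.40), with a gap to the next library of 0.793 of the group's range, in the library with few reads on long genes.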

How the results depend on the processing

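Aqp1 and Miox were called lower under all 37 alternatives, 20 of them leaving out a single library, and the count of lower genes among the 10 was 2 to 3 in both kinds. The count of higher genes, 1, was 0 to 1 over leaving out single libraries, and 0 with DESeq2 size factors in edgeR, upper quartile factors, a count minimum of 50 or without normal kidneys 5, 7 and 8 (a setting added after seeing the data, as were those without kidneys 5, 7, 8 and 9 and the block without the libraries numbered 9). Among all genes, leaving out single libraries gave 3474 to 4201 lower and 3420 to 4052 higher genes. The 10 tumors and 10 kidneys came from a cohort of 10 mice, but no label says that a number marks a mouse. The number of a sample was not taken as a pair, since the deviations of same-numbered libraries correlated at 0.19 to 0.38 in 9 of 10 cases but at -0.14 for number 9. All 10 matched on sex-linked genes, and 5 of 10 kidneys and 8 of 10 tumors correlated best with their own number. Normal kidney 9 was the library with few reads on long genes, so the -0.14 cannot show that number 9 is not a pair. If the numbers mark mice, the main test leaves out that pairing. With a replicate block the count of higher genes was 2, also with a gene length correction or without the libraries numbered 9, as Lrp2 was then called (0.70, 0.64 and 0.50), and the log2 ratio of Dab2 to Lrp2, -0.82, passed the sign-flip test. The ratio of Clcn5 to Lrp2 was -0.35 and no longer passed without normal kidneys 5, 7 and 8. Values that changed sign were not past the threshold. Lrp2 was -0.0011 without kidneys 5, 7, 8 and 9. Dab2 was 0.022 with quality weights, and 0.20 and 0.081 without kidneys 5, 7 and 8 or 5, 7, 8 and 9. Lrpap1 was -0.078 with upper quartile factors, -0.064 with library totals, -0.00020 with a count minimum of 50, -0.27 and -0.18 without those kidneys, and -0.050 to 0.17 over single libraries. Slc5a12 was -0.00035 with DESeq2 size factors, -0.12 with upper quartile factors, -0.17 with library totals, -0.030 with a count minimum of 50, -0.00036 with DESeq2, -0.37 with quality weights, -0.0042 with the length correction, -0.027 without normal kidney 9 and tumor 7, -0.33 and -0.53 without those kidneys, and -0.12 to 0.17 over single libraries. The ratio of Amn to Lrp2 was 0.12 without normal kidney 9 and tumor 7 and 0.19 without kidneys 5, 7 and 8, and that of Dab2 to Lrp2 was 0.050 in the latter setting. The r of Lrp2 with Cubn and Amn was 0.582 and 0.537 without tumor 7, no longer past the threshold. The cause of these changes was not tested. Depth did not limit these genes, whose lowest count was 250.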
